A study of Mus musculus with 8 samples.

Results

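The ubiquitin-specific protease genes of the mouse, the largest family of deubiquitinases, were followed in 2 lymphoma lines exposed for 2 h to the BET inhibitor JQ1. The members were all genes of the count table whose symbol is Usp followed by a number, with or without a final x, y or l, except Usp18 and Usp9y. The rule found 48 genes among 43629 in the table. The family was selected on the readout itself, because many of its genes were higher after JQ1 in an earlier look at the same libraries. For the JQ1 comparison, whether a member passed the threshold of the fit over all genes is therefore given as a description, and its test supports nothing about the family. Only the comparisons between the lines were independent of the choice.

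The lines, 1.1 and 1.2, are Eμ-Myc lymphomas of C57BL/6 background. All 4 groups carry the Eμ-Myc transgene, in which the immunoglobulin heavy chain enhancer drives Myc in B lineage cells, so no group lacks it. Early passage cells of each line received 250 nM JQ1 or DMSO, its solvent, and each of the 4 groups held 2 libraries. The labels do not say whether the 2 libraries of a group were separate cultures, nor whether the lines came from separate animals, and p-values measure only the spread between these libraries. JQ1 displaces BET bromodomain proteins from acetylated histones and thereby alters transcription by RNA polymerase II.

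Ubiquitin-specific proteases are cysteine proteases that cut ubiquitin from proteins or trim ubiquitin chains. They oppose the ubiquitin ligases and set the stability, location or activity of their substrates. The family is known in lymphocytes and tumours for acting on histones, DNA repair proteins, p53 and its ligase MDM2, receptors on endosomes and signalling adaptors. A few members, such as USP39, are regarded as lacking protease activity.

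Each library held 10347453 to 13049877 reads assigned to genes. All 8 B cell markers passed the expression filter and were summed at 2060 to 2246 CPM, counts scaled to a common library total, in DMSO and 1360 to 1560 CPM in JQ1 libraries. None of 8 T cell, 5 NK cell and 4 erythroid markers passed, 1 of 8 myeloid markers (Itgam, 1.06 CPM) and 1 of 6 stromal and endothelial markers passed. At 0 in all libraries were 4 of the T cell, 3 of the NK cell, 3 of the myeloid, 2 of the erythroid and 4 of the stromal and endothelial markers, and the markers of each of these classes summed to at most 2.26 CPM in any library. The lower B cell markers moved with JQ1, and their part in the values below was not tested. In bulk libraries fewer cells of a type and less RNA per cell cannot be told apart, and CPM does not reveal whether a cell's whole mRNA content shifted. Reads assigned to no gene were 14.0 to 14.4% in the 4 JQ1 libraries and 12.3 to 13.1% in the 4 DMSO libraries, and the part of this share was not tested either.

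Promoter sequences of 4 members are shown because these genes carry the contrasts described below: Usp20 had the largest rise, Usp40 the largest fall, and Usp12 and Usp46, a related pair, moved in opposite directions. The sequences are the bases upstream of the annotated start, on the gene's own strand, from RefSeq on build GRCm38.p6. They end just before the first base that either RefSeq or GENCODE M21 gives as transcribed. The Usp20 window is chr2:30982029-30982278 (plus strand), that of Usp12 chr5:146795007-146795206 (minus), that of Usp46 chr5:74068432-74068661 (minus) and that of Usp40 chr1:88008552-88008801 (minus). Capitals mark GC boxes (GGGCGG on either strand, the letters bound by Sp and Kruppel-like factors) and, in Usp40, a TATA box (TATAAA).
Usp20: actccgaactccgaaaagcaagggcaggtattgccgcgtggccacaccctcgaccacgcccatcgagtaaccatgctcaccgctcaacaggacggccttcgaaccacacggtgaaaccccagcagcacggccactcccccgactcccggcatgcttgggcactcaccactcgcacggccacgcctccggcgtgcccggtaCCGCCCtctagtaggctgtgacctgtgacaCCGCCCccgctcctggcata
Usp12: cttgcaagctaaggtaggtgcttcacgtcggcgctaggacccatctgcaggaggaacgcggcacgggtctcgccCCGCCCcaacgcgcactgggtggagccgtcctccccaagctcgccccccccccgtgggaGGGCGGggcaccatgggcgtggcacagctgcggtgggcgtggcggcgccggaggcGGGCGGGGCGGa
Usp46: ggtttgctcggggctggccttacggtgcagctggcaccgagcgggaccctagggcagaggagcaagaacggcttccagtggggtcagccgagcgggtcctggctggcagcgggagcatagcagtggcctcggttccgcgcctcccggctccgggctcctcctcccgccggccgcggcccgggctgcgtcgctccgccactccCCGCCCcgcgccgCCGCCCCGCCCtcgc
Usp40: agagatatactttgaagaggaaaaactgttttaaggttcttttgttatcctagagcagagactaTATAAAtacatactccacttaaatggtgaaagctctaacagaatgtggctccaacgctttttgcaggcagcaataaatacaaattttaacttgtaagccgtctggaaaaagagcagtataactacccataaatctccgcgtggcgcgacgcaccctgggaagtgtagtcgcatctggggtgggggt

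The Usp20 window held 2 GC boxes and 65.6% G and C, and those of Usp12 and Usp46 held 4 and 3 GC boxes, overlapping ones counted separately, at 74.5 and 76.5% G and C. Among these 4, the Usp40 window stood apart with no GC box, 1 TATA box, 42.0% G and C and 8 CpG dinucleotides, against 23 CpG in Usp20. Other members shared such traits. Windows without a GC box also belonged to Usp54 and Usp50, which rose (45.2 and 46.0% G and C), and to Usp30, which fell (61.6%). The window of Usp19, which rose, held a TATA box. The table of promoter windows held 37 of the 48 members, 31 of them among the genes tested. In the 250 bases upstream of the start, a GC box was in 21 of 31 member windows (67.7%), against 58.2% of the windows of all genes tested and 32.7% of all windows. An ETS site (CCGGAAG, either strand) was in 7 of 31 (22.6%, against 15.1 and 6.91%), the E-box CACGTG, which MYC and MAX bind, in 3 of 31 (9.68%, against 8.73 and 6.02%), and a CCAAT box in 5 of 31 (16.1%, against 36.1 and 33.8%). A TATA box was in 2 of 31 (6.45%, against 5.79 and 12.4%), the core GCGCATGC of NRF1 sites in 2 of 31 (6.45%, against 4.64 and 2.26%) and the CRE TGACGTCA in 0 of 31, against 2.78 and 1.55%. Among the members with a window, a GC box was in 11 of 19 that rose and 5 of 7 that fell. The 3 E-box windows belonged to Usp16 and Usp31, which rose, and Usp4, which did not pass. These are matches of letters, not binding sites.

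Without drug the lymphoma cells expressed most of the family. Of 48 members, 40 passed the expression filter, which used all 8 libraries, as did 12413 of the 43629 genes in the table. The means of these members ran from 1.51 CPM (Usp44) to 318 CPM (Usp7) in DMSO. Over all 8 libraries they ran from 1.67 CPM (Usp44) to 312 CPM (Usp7). Of the 8 members that did not pass, Usp13, Usp26, Usp29 and Usp43 had 0 reads in every library. This allows at most 0.23 to 0.29 CPM (3 reads in a library, counting error only). Usp27x had 2 to 6 reads per library, and Usp35, Usp51 and Usp53 had at most 2. Several of these 8 have a close relative that was expressed: Usp13 is related to Usp5, Usp27x and Usp51 to Usp22, Usp35 to Usp38, Usp43 to Usp31 and Usp53 to Usp54.

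Levels compared between genes are CPM per kb of annotated exon sequence, as means of the 4 DMSO libraries. Usp1, which encodes the protease that removes ubiquitin from FANCD2 and PCNA, was highest at 77.1 CPM per kb. Usp39, a spliceosome component, followed at 56.7, Usp5, which recycles free ubiquitin chains, at 41.9, Usp7, the protease of MDM2 and p53, at 41.0, and Usp19, which is anchored in the endoplasmic reticulum membrane, at 27.3 CPM per kb. Usp1 ranged from 75.0 to 79.8 and Usp39 from 53.4 to 62.1 CPM per kb over the 4 libraries, so these did not overlap each other or the genes below. Usp5 (40.9 to 43.2) and Usp7 (38.7 to 43.8) overlapped. At the other end, Usp54, Usp49, Usp20, Usp2 and Usp44 were at 1.16, 0.968, 0.933, 0.657 and 0.374 CPM per kb. In the plot of levels without JQ1 the order of the genes is nearly the same in both lines.

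**Figure D1:**
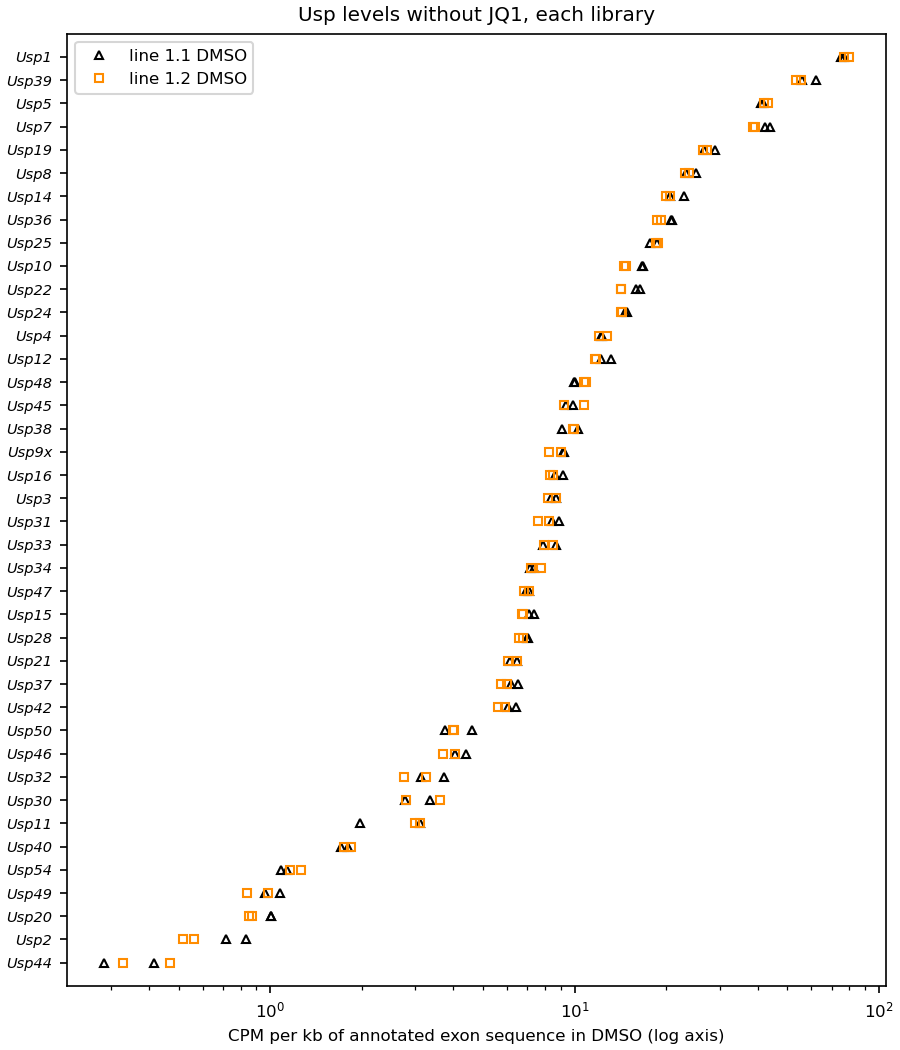
Level of each of the 40 Usp genes that passed the expression filter in the 4 DMSO libraries, as CPM per kb of annotated exon sequence on a log axis (triangles, line 1.1; squares, line 1.2; 2 libraries each). Usp1 is at the top at 75.0 to 79.8 CPM per kb and Usp44 at the bottom, and the symbols of the lines lie close together for most genes.

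After JQ1 most of the expressed members were higher and the changes were small. Averaged over the lines, 24 of the 40 members passed the threshold (edgeR adjusted p under 0.05) as higher, where 30.7% of all 12413 genes tested did, and 8 as lower, where 31.3% of all genes did. The other 8 (Usp2, Usp4, Usp7, Usp14, Usp36, Usp42, Usp44 and Usp45) did not pass. Because the family was chosen for this rise, nothing is read from these counts. The median log2 change of the 40 was 0.17 against 0.004 over all genes tested, and their median absolute log2 change was 0.25, as over all genes. Only Usp20 passed as at least 2-fold higher, where 3.53% of all genes did, and 0 members passed as at least 2-fold lower, where 5.87% did. In a test against a fold change of 1.5, 3 members were called higher and 0 lower, and the shares of all genes were not computed.

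Library by library, 23 members had both JQ1 libraries above both DMSO libraries in each line, as 28.8% of all genes did, and 9 had them below, as 29.8% did. In line 1.1, 20 members rose and 7 fell (24.9 and 26.1% of all genes), and in line 1.2, 19 rose and 7 fell (24.4 and 25.0%). Of these, 17 rose and 6 fell in both lines, and the shares of all genes that did so were not computed. The level of Gm42418, a transcript within the ribosomal RNA repeat, was 1296 and 2644 CPM in the JQ1 libraries of line 1.2 and 341 to 977 CPM in the other 6. With that level as a covariate, 23 members rose and 5 fell on average, where 3102 and 3074 of the 12413 genes tested did. Without the covariate 3808 of all genes rose and 3883 fell. In line 1.2 alone 9 members rose and 3 fell with it, and the shares of all genes there were not computed. All reads on the 48 genes were 0.365 and 0.367% of gene reads in DMSO and 0.383 and 0.385% in JQ1 in line 1.1, and 0.353 and 0.358% against 0.372 and 0.380% in line 1.2.

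**Figure D2:**
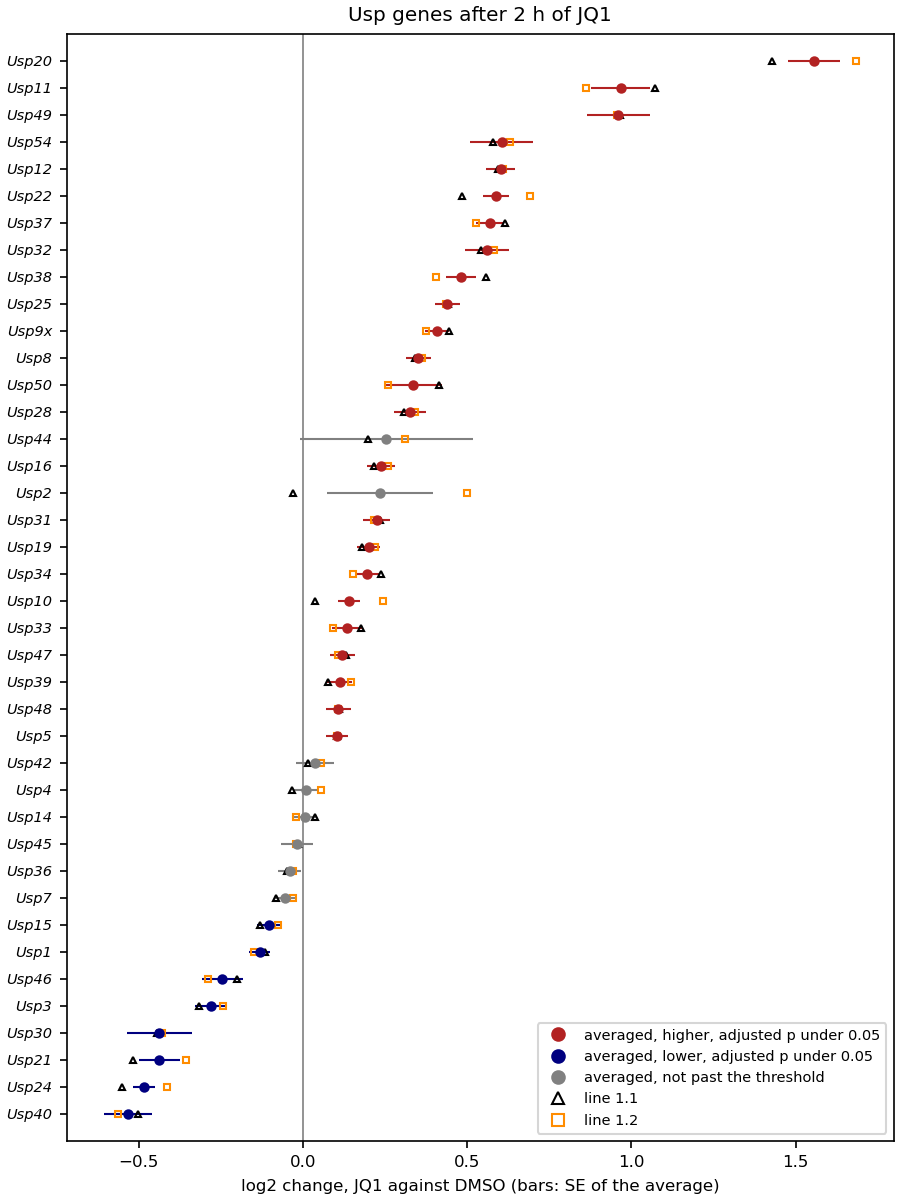
Log2 change between JQ1 and DMSO for the 40 expressed Usp genes, sorted by the average over both lines (filled circles, bars are 1 SE; red, higher, blue, lower, both with adjusted p under 0.05; grey, not past the threshold), with line 1.1 (triangles) and line 1.2 (squares). Usp20 stands to the right of all others at 1.56, 3 genes lie at about 0.96 or above, and Usp40 is lowest at -0.53.

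Usp20 and its relative Usp33 encode proteases of receptor recycling and of the hypoxia and adrenergic pathways. Usp20 (chromosome 2, 30982279 to 31023586) was at 9.04 and 9.08 CPM in DMSO and 24.8 and 24.0 CPM in JQ1 in line 1.1. In line 1.2 it was at 7.67 and 7.87 CPM in DMSO and 23.9 and 26.2 CPM in JQ1, from 85 to 300 reads per library. Every JQ1 library lay far above every DMSO library, and the averaged log2 change was 1.56 ± 0.079 (SE), a 2.94-fold rise. It ranked 198 among the 12413 genes by averaged log2 change. Usp33, far more abundant, averaged 80.0 ± 5.7 CPM in DMSO and 90.8 ± 6.5 CPM in JQ1 in line 1.1, and 79.5 ± 4.1 and 84.8 ± 4.1 CPM in line 1.2 (SD, n = 2), a log2 change of 0.14 ± 0.047 with overlapping libraries. Of the 6 members of endosome, receptor and endoplasmic reticulum traffic, 5 rose and 0 fell (30.7 and 31.3% of all genes). Usp8, which deubiquitinates receptors sorted by the ESCRT complexes, rose by 0.35 on the log2 scale, from 97.1 and 105 to 129.7 and 126 CPM in line 1.1 and from 97.0 and 99.8 to 125 and 128 CPM in line 1.2. Usp32, which acts on the endosomal GTPase RAB7, rose by 0.56 ± 0.067 and Usp19 by 0.20 ± 0.035, while Usp2 was at 0.23 ± 0.16 from 30 to 53 reads per library.

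Usp50 overlaps Usp8 in the genome. Usp50 (chromosome 2, 126709096 to 126783470, minus strand) and Usp8 (126707328 to 126759297, plus strand) share 50202 bp, though no annotated exons. The log2 change of Usp50 was 0.34 ± 0.086, close to that of Usp8, from 122 to 224 reads per library. The strand setting of the counting is not given in the sources used here, so reads of Usp8 introns and of Usp50 exons cannot be told apart.

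Of the 6 measured members that act on ubiquitinated histones H2A and H2B, 3 rose, 2 fell and 1 did not pass, where 30.7% of all genes rose and 31.3% fell. Usp22 encodes the protease of the SAGA coactivator complex. It was at 80.4 and 77.9 CPM in DMSO and 109 and 113 CPM in JQ1 in line 1.1, and at 69.3 and 69.5 against 108 and 116 CPM in line 1.2, an averaged log2 change of 0.59 ± 0.041. Usp49, a protease of H2B, went from 8.28 and 9.27 to 18.2 and 15.9 CPM in line 1.1 and from 7.22 and 8.45 to 13.9 and 16.6 CPM in line 1.2 (0.96 ± 0.096). The groups did not overlap in either line, but 4392 of the 8581 exon bases of Usp49 are shared with Gm20517 on the same strand, whose own count was 2 to 14 reads, so the level of Usp49 is uncertain. Usp16, a protease of H2A, rose by 0.24 ± 0.041. Usp21, another protease of H2A, fell from 29.2 and 30.7 to 21.2 and 20.6 CPM in line 1.1 and from 30.9 and 28.6 to 21.8 and 24.6 CPM in line 1.2 (-0.44 ± 0.064). Usp3 changed by -0.28 ± 0.048, with every JQ1 library (46.2 to 50.3 CPM) below every DMSO library (56.1 to 59.7 CPM). Usp44 was at 0.25 ± 0.26, from 12 to 31 reads per library.

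The partners of USP22 in the deubiquitinase module of SAGA were measured too. Atxn7l3, its activating subunit, changed by 0.51 ± 0.037, Eny2 by 0.35 ± 0.048 and Atxn7 by 0.28 ± 0.067, and all rose. The Atxn7 relatives Atxn7l1 (-1.21) and Atxn7l2 (-0.53) fell, and so did Atxn7l3b (-0.17). Of all genes, 30.7% rose and 31.3% fell.

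Among the members of DNA repair and p53 control, 6 of 10 rose, 1 fell and 3 did not pass (30.7 and 31.3% of all genes rose and fell). Usp11, which acts in homologous recombination, was at 9.34 and 14.7 CPM in DMSO and 24.2 and 25.3 CPM in JQ1 in line 1.1, and at 14.2 and 14.7 against 27.2 and 25.3 CPM in line 1.2. All JQ1 libraries were above all DMSO libraries, of which line 1.1 replicate 1 was the lowest, and the averaged log2 change was 0.97 ± 0.091 (X chromosome, 20703906 to 20720539). Usp37, a protease of cyclin A and replication factors, rose from 68.7 and 72.2 to 109 and 106 CPM in line 1.1 and from 66.7 and 63.3 to 90.0 and 97.5 CPM in line 1.2 (0.57 ± 0.043). Usp28, which opposes the MYC ligase FBXW7, rose by 0.33 ± 0.049, and Fbxw7 itself by 0.30 ± 0.052. Usp1 and Usp7 were the most abundant genes of the family by CPM. Usp1 was at 280.0 to 298 CPM in DMSO and 260.1 to 268 CPM in JQ1 libraries (-0.13 ± 0.032). Usp7 was at 301 to 340.0 CPM in DMSO and 291 to 316 CPM in JQ1 libraries, which overlapped (-0.06 ± 0.032). Usp47, Usp48 and Usp10 changed by 0.12, 0.11 and 0.14, and Usp42 and Usp45 were at 0.04 and -0.02 without passing.

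USP1, USP12 and USP46 share the activating partner UAF1, the product of Wdr48. Usp12 went from 61.1 and 56.8 to 89.4 and 89.0 CPM in line 1.1 and from 54.0 and 54.7 to 81.1 and 84.8 CPM in line 1.2 (0.60 ± 0.043). Usp46, its close relative, went the other way, from 34.4 and 31.6 to 27.4 and 30.4 CPM in line 1.1 and from 31.7 and 29.1 to 25.1 and 24.6 CPM in line 1.2 (-0.24 ± 0.061). Usp12 was higher, and Usp46 lower, in both JQ1 libraries of each line than in both of its DMSO libraries. With the Gm42418 level as a covariate Usp46 was at -0.18 and lost its call (edgeR adjusted p = 0.109). Wdr48 (-0.06 ± 0.044) and Wdr20, the gene of a further subunit (0.06 ± 0.071), did not pass.

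The 3 largest proteins of the family are encoded by Usp9x, Usp24 and Usp34. Usp9x, a protease of the apoptosis regulator MCL1 and of other substrates, went from 139 and 138 to 186 and 191 CPM in line 1.1 and from 124 and 136 to 169 and 169 CPM in line 1.2 (0.41 ± 0.036). Usp24 fell from 184 and 181 to 124 and 125 CPM in line 1.1 and from 176 and 177 to 132 and 133 CPM in line 1.2 (-0.48 ± 0.034). Neither gene had overlapping groups, and replicates of Usp24 differed by a small part of its change. Usp34 rose by 0.19 ± 0.037.

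Of 4 members assigned to NF-kB and interferon signalling, the 3 measured were Usp25, Usp38 and Usp31. They changed by 0.44 ± 0.038, 0.48 ± 0.047 and 0.22 ± 0.041, and all 3 rose, where 30.7% of all genes did. Of the genes of the spliceosome and nucleolus, Usp39 rose by 0.11 and Usp15 fell by 0.10, while Usp4 and the nucleolar Usp36 were at 0.01 and -0.04. Usp5 rose by 0.10, and the proteasome-bound Usp14 was at 0.01 ± 0.037. Usp30, a protease of the mitochondrial outer membrane that restrains mitophagy, was at 20.4 and 16.8 CPM in DMSO and 13.6 and 13.9 CPM in JQ1 in line 1.1, and at 21.9 and 16.9 against 16.5 and 12.1 CPM in line 1.2 (-0.44 ± 0.098). Its replicates in line 1.2 were almost as far apart as its groups, and it lost its call with the Gm42418 covariate. Usp40 had the largest fall of the family, from 20.3 and 21.4 to 14.4 and 15.04 CPM in line 1.1 and from 20.7 and 21.9 to 14.2 and 14.6 CPM in line 1.2 (-0.53 ± 0.072). Usp54 went from 9.87 and 10.3 to 14.1 and 16.0 CPM in line 1.1 and from 11.5 and 10.5 to 14.7 and 19.3 CPM in line 1.2 (0.60 ± 0.096), and its log2 change was 0.39 with the Gm42418 covariate.

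**Figure D3:**
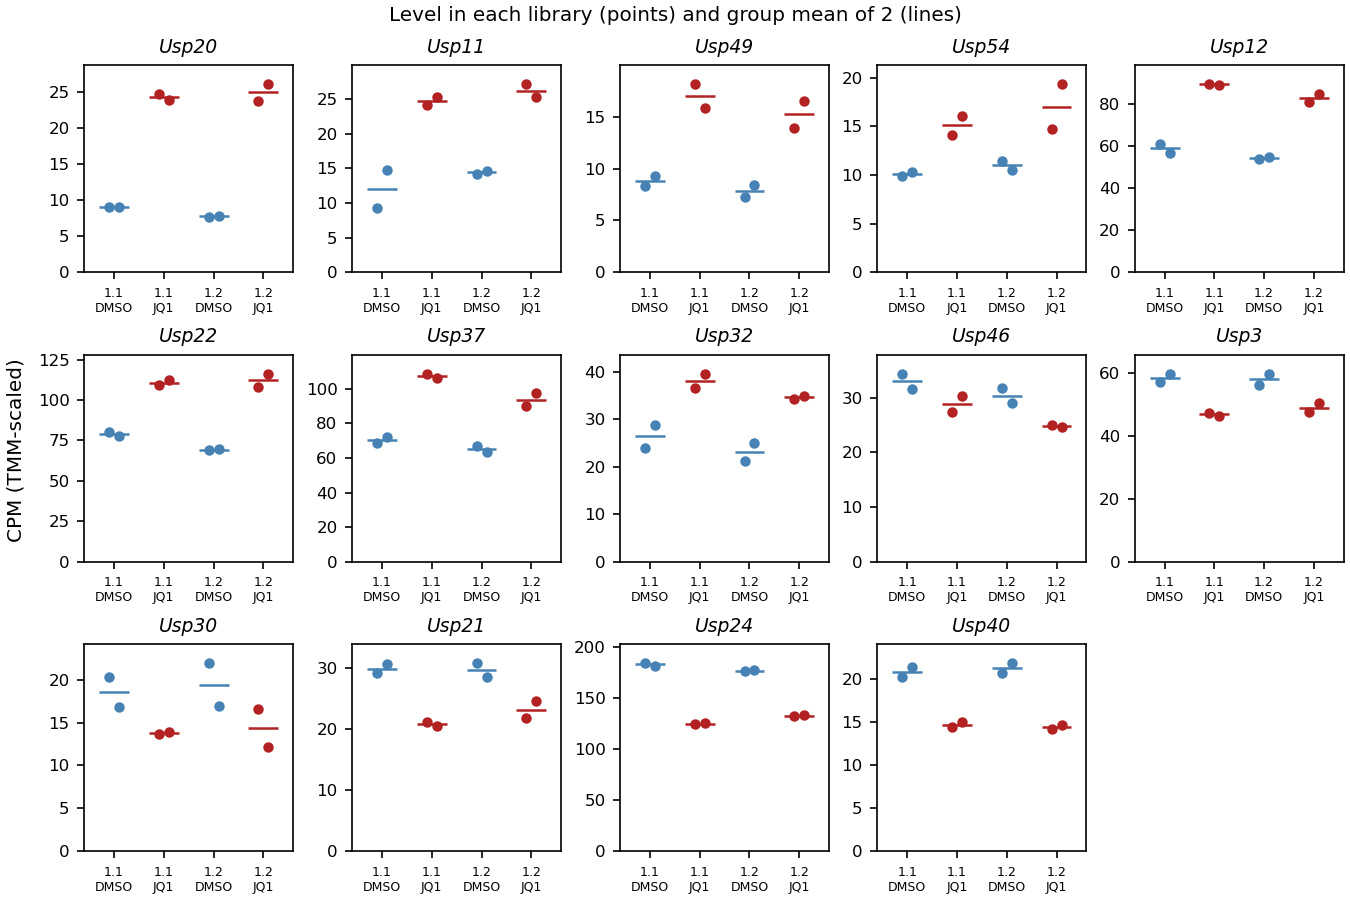
CPM of the 8 members that rose most and the 6 that fell most, in each library (points) with the mean of 2 libraries (lines), in DMSO (blue) and JQ1 (red) for lines 1.1 and 1.2, each panel starting at 0. In every panel both JQ1 libraries of a line lie on the same side of both its DMSO libraries, with the narrowest gap for Usp30 in line 1.2.

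Related members did not always share a call after JQ1. Of 18 pairs of relatives, 11 had both genes measured, 6 had 1 and 1 pair, Usp26 and Usp29, had neither. Both genes rose in 2 pairs, Usp25 with Usp28 and Usp20 with Usp33, though by very different amounts in the latter. In 2 pairs, Usp12 with Usp46 and Usp9x with Usp24, 1 rose and the other fell, though the fall of Usp46 did not pass with the Gm42418 covariate. In 6 pairs only 1 gene passed, among them Usp11 (0.97) beside Usp4 (0.01), Usp49 (0.96) beside Usp44 (0.25) and Usp21 (-0.44) beside Usp2 (0.23). Neither Usp36 nor Usp42 passed. The difference within a pair was not tested, and pairs of other genes were not counted. A gene that passed beside a relative that did not is therefore not shown to differ from it.

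**Figure D4:**
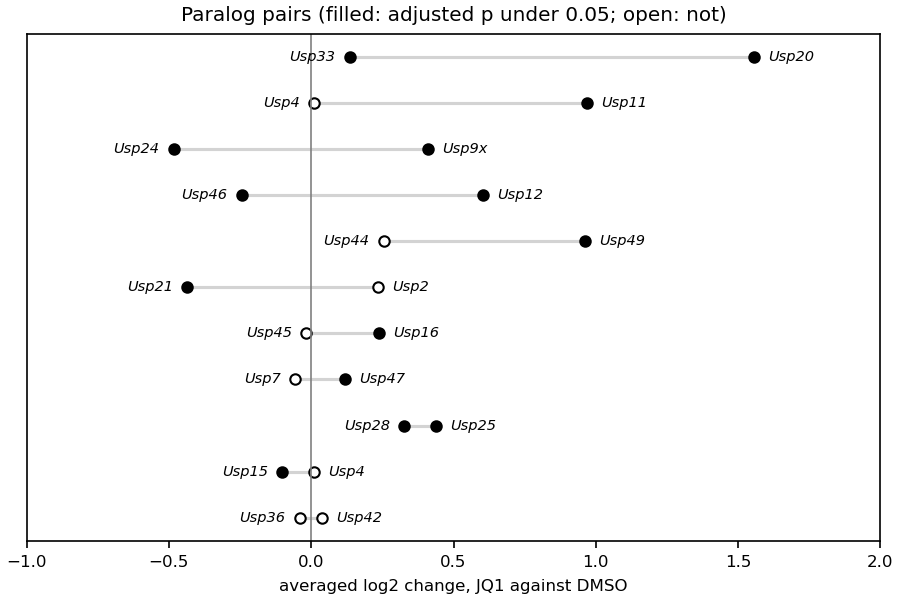
Averaged log2 change after JQ1 of the 11 pairs of related Usp genes with both members measured, sorted by the distance within the pair (filled, adjusted p under 0.05; open, not past the threshold). The distance is largest for Usp33 and Usp20, at 0.14 and 1.56, and the pairs Usp24 with Usp9x and Usp46 with Usp12 span 0.

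Across the 40 members the averaged log2 change had a Spearman coefficient of -0.13 with exon length, 0.01 with the length of the locus and -0.28 with mean CPM. Over all genes tested these were -0.01, -0.02 and 0.09. The members are long genes, with a median locus of 56596 bp and 7684 bp of exon sequence, against 18268 and 3988 bp over the genes tested with an annotation. The points share the same 8 libraries, and genes are not independent replicates.

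Whether the lines differed in these genes was not part of the choice of members and was tested. The difference of the JQ1 effects between the lines passed for 0 of 40 members in edgeR, DESeq2 and limma-voom, where 0.113% of all genes did in edgeR. At an unadjusted p under 0.05 there were 2 members by edgeR (Usp10 and Usp22), 1 by DESeq2 and 2 by limma-voom. Both had a positive difference (line 1.2 minus line 1.1), as 4.1% of all genes did at that p by edgeR, and 3.96% had a negative one. Usp22 rose by 0.48 in line 1.1 and 0.69 in line 1.2, a difference of 0.21 ± 0.081 (SE, edgeR adjusted p = 0.526). Usp20 differed by 0.26 ± 0.17 (edgeR adjusted p = 0.71), the largest difference among members with a mean of at least 5 CPM. These p-values do not show that the lines respond alike. Over the 40 members the changes in line 1.1 and line 1.2, measured on separate libraries, had a Spearman coefficient of 0.94. Unlike the tests above, this coefficient uses the JQ1 changes for which the family was chosen. It was not computed over all genes, and genes are not independent replicates, so nothing is read from it.

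In DMSO, 1 member passed as lower in line 1.2, where 3.17% of all genes did, and 0 as higher, where 3.59% did. At an unadjusted p under 0.05, 7 were lower and 1 was higher, against 9.78 and 10.5% of all genes. The gene that passed was Usp10, which acts on p53 and on stress granules. It was at 159 and 161 CPM in line 1.1 and 139 and 141 CPM in line 1.2, groups that did not overlap, with a log2 difference of -0.19 ± 0.049 (SE, edgeR adjusted p = 0.0178). This call was lost with DESeq2 (adjusted p = 0.0859), with only the 4 DMSO libraries (adjusted p = 0.0913) and without line 1.2 DMSO replicate 1 or 2 (adjusted p = 0.131 and 0.119), and over all alternatives its adjusted p ranged from 0.0071 to 1. In JQ1 the libraries of Usp10 were at 163 and 166 CPM in line 1.1 and 164 and 169 CPM in line 1.2. Among members with a mean of at least 5 CPM, line differences in DMSO ran from -0.22 (Usp20) to 0.29 (Usp11) on the log2 scale, and 27 of the 40 members were lower and 13 higher in line 1.2.

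The lines were also compared under JQ1, a comparison added after the values were seen. There 1 member passed as lower in line 1.2, where 2.92% of all genes did, and 0 as higher, where 3.49% did. At an unadjusted p under 0.05, 6 were lower and 1 was higher, against 9.91 and 11.1% of all genes. The member was Usp37, at 109 and 106 CPM in line 1.1 and 90.0 and 97.5 CPM in line 1.2, groups that did not overlap. Its log2 difference was -0.20 ± 0.057 (SE, edgeR adjusted p = 0.0368). The call was lost with DESeq2 (adjusted p = 0.228), with no filter on low counts (adjusted p = 0.0583) and with the Gm42418 covariate, which moved the difference to -0.35 (adjusted p = 0.0503). It was also lost without line 1.1 JQ1 replicate 1 or 2, line 1.2 DMSO replicate 2 or line 1.2 JQ1 replicate 1 (adjusted p = 0.259, 0.15, 0.0548 and 0.392), and over all alternatives the adjusted p ranged from 0.00276 to 1.

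Deubiquitinases of other families were compared by count, with the same backgrounds of 30.7 and 31.3%. Of 37 measured genes of 5 other families, 9 rose and 15 fell, and their median was -0.07 on the log2 scale. The OTU family had 4 of 14 higher and 4 lower, with Otub2 at -0.72, Otud3 at 0.51 and Vcpip1, which acts in Golgi reassembly, at 0.43. The JAMM metalloproteases had 3 of 12 higher and 7 lower, including the endosomal Stambp (-0.93) and Stambpl1 (-0.56) and the DNA damage protease gene Brcc3 (-0.41). Of the UCH family 1 of 4 rose and 1 fell, Uchl5 at 0.17 and the tumour suppressor gene Bap1 at -0.32. Of 3 Josephin genes 1 rose, and of 4 MINDY and ZUFSP genes 3 fell, led by Mindy1 (-0.72). Of 3 measured relatives of the family outside the symbol rule, Uspl1 fell (-0.13) and Cyld (-0.05) and Pan2 (0.03) did not pass, and Usp18 had 0 to 3 reads per library. Whether these families differed from the Usp genes was not tested.

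Genes that attach ubiquitin and its relatives were compared by count as well. Ubb, which encodes a chain of ubiquitin units, rose (0.25). Of 8 activating enzymes 2 rose and 4 fell. The 2 that rose, Uba1 (0.15) and Uba6 (0.57), activate ubiquitin. The 4 that fell act on ubiquitin-like proteins, Uba7 on ISG15 (-1.21), Uba3 on NEDD8 (-0.29), and Uba2 (-0.15) and Sae1 (-0.10) on SUMO. Of 32 measured conjugating enzymes 7 rose, 6 fell and 19 did not pass, with Ube2h at 0.59, Ube2o at 0.45 and Ube2r2 at -0.38. Of 7 SUMO proteases, a separate family with a similar task, 2 rose and 3 fell, Senp5 at 0.59, Senp1 at -0.63 and Senp6 at -0.31. Of 16 partners of these proteases 5 rose and 4 fell. Of 21 measured substrates and their ligases 7 rose and 7 fell, with the kinase gene Ripk1 at 0.54, Fancd2 at -0.37 and Fbxw7 at 0.30.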

How the data were processed

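RNA of 8 libraries was sequenced after TruSeq preparation, per the labels' protocols. The deposited values are unnormalised counts of reads per Ensembl gene. HTSeq, TopHat, Bowtie2, cutadapt 1.7, FastQC, limma and the build GRCm38 (mm10) are named, per the submitters' processing notes. The role of each tool, the annotation release and the strand setting were not given in the sources used here. Exons of 17 of the 48 members overlap exons of a gene on the other strand, and 5 overlap one on the same strand, so their counts are uncertain to that extent. The 5 summary lines of HTSeq were left out. Reads assigned to no gene were 12.3 to 14.4% and ambiguous reads 1.54 to 1.67% of the reads in the table. Of 43629 genes, 42462 matched a symbol. Coordinates and exon lengths are from GENCODE M21 (GRCm38).

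From the counts, edgeR 4.0.16 (R 4.3.3) tested 12413 genes kept by filterByExpr (minimum count 10, minimum total 15). Libraries were scaled by TMM, and CPM uses this scaling. A model of 4 group means left 4 residual degrees of freedom. Contrasts were tested two-sided by the quasi-likelihood F test, with Benjamini-Hochberg adjustment over all genes tested and a threshold of 0.05. Standard errors of log2 fold changes were derived from the F statistic. "Rose" and "fell" mean that a gene passed this threshold. The procedure was tested on simulated data. Replicates of every group differed by more than sampling noise.

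The members, lists, pairs and roles were chosen with earlier results of these data known. Members given in full were the 8 largest rises and 6 largest falls with a mean of at least 5 CPM, those past the threshold between lines in DMSO, and the 5 highest per length. Up to 3 genes of each list were named by size of change. Further members and partners (among them Usp8, Usp9x, Usp33, Usp50, Eny2, Wdr48, Wdr20, Uba1, Uba2 and Sae1) were named for their role after their values were seen. Alternatives were other scalings, DESeq2 1.42.0, limma-voom 3.58.1, other filters, thresholds and models, a replicate block, a Gm42418 covariate and each library left out.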

Additional observations from a re-analysis of the deposited data

Results flagged for a closer look

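The share of reads that the count table assigns to no gene, which no comparison used, was higher after JQ1. It was 14.2 ± 0.16% in JQ1 and 12.8 ± 0.39% in DMSO libraries (SD, n = 4), a difference of 1.415 percentage points with no overlap (two-sided exact permutation p = 0.0286, the smallest that 4 against 4 libraries allow). The permutation moved libraries freely between the lines, although JQ1 and DMSO were compared within each line, so its p ignores that design. The part of the reads assigned to no gene in the values of the Usp genes was not tested.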

How the results depend on the processing

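The counts of called members were recomputed under each alternative. Of these values, 181 lay within 1.5 times those reported or were 0 where 0 was reported, and 38 did not meet this. Counts that stayed at 0 are thus among the 181. A test against a fold change of 1.5 left 3 members higher and 0 lower on average, 3 and 0 in line 1.1, 2 and 0 in line 1.2, and 0 lower in line 1.2 in DMSO. With the Gm42418 covariate 23 rose and 5 fell on average, where 3102 and 3074 of 12413 genes did. In line 1.2, with it, 9 rose and 3 fell. In line 1.1, 4 fell with DESeq2 and 4 at a threshold of 0.01. Members lower in line 1.2 in DMSO were 3 with DESeq2's size factors, 2 with limma-voom, 2 with a filter of 5 CPM, and 0 with DESeq2, at a threshold of 0.01 or with only the 4 DMSO libraries. With 1 library left out, the lone library of a group being assumed to vary like the others, 22 to 24 members rose and 7 to 9 fell on average, 17 to 20 rose and 4 to 8 fell in line 1.1, and 16 to 20 rose and 4 to 7 fell in line 1.2. In DMSO 0 to 4 were lower in line 1.2 and 0 to 1 higher. Falls in line 1.1 were 4 without its JQ1 replicate 1, and those in line 1.2 were 4 without its DMSO or JQ1 replicate 1. The count lower in DMSO was 2 and 4 without line 1.1 DMSO replicates 1 and 2, and 0 without either of line 1.2. With library totals as scaling 19 rose and 10 fell on average, where 3229 and 4349 of 12413 genes did. The median change of all genes moved to -0.04. For the alternatives within a line, between the lines or with 1 library left out, counts of all genes were not computed. Of the named genes' values, 0 changed direction, and Usp46 (-0.18) and Usp30 (-0.18) lost their calls with the covariate, and Usp54 moved to 0.39. Under JQ1 the members lower in line 1.2 were 0 with DESeq2, with no filter on low counts, with the covariate, against a fold change of 1.5 and at a threshold of 0.01, 5 with only the 4 JQ1 libraries, and 0 to 5 with 1 library left out, 4 and 5 without line 1.1 DMSO replicates 1 and 2. These alternatives for the JQ1 libraries were chosen after seeing the data.

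The replicate block gave 24 members higher and 8 lower on average, where 3825 and 3884 of 12413 genes were. It gave 20 and 7 in line 1.1, 19 and 7 in line 1.2, and 0 for the difference between lines. Lower in line 1.2 was 1 member in DMSO and 1 in JQ1. Same-numbered libraries showed no strong shared deviation (correlations of -0.03 to 0.08 over 12413 genes between groups). With 1 difference per group, this cannot tell whether the numbers mark paired cultures or rounds of preparation. Depth limits the low members: at under 60 reads per library, changes of Usp2 and Usp44 had an SE of 0.16 and 0.26.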
